A study of Mus musculus with 110 samples.

Results

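Hcar1, Hcar2, Ffar2, Ffar4, Sucnr1 and Gpr84 encode G protein-coupled receptors through which fat cells and immune cells sense metabolites in the fluid around them. These 6 genes, of 56884 genes in the deposited counts, were chosen by name because Hcar1 and Hcar2 had been seen to change in these tissues, so the values of Hcar1 and Hcar2 between groups are given as a description with no test. The other 4 receptors were taken as known sensors of related metabolites and were tested together with all genes. They too were chosen with earlier results of these data known. All 6 were found in the annotation. In iBAT 5 of the 6 passed the filter of 10 counts in total, and in Liver, iWAT and eWAT all 6 did.

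RNA was sequenced from Liver, interscapular brown fat (iBAT), inguinal white fat (iWAT) and epididymal white fat (eWAT) of male wild-type C57BL/6N mice, which were housed singly and were 16 weeks old at the end. The control diet (Ctrl, methionine 0.86% in the labels) and the methionine-restricted diet (MetR, 0.12%) were both free of cysteine, and were fed for 7 days to mice kept at 22 °C (RT). The mice exposed to cold (CE) then spent 24 h at 4 °C, which gave the groups Ctrl_RT, Ctrl_CE, MetR_RT and MetR_CE with 7 mice each. The Ctrl group is thus no ordinary chow group, and the cold-exposed mice were on their diet for 1 day more than the RT mice. The study asked how the responses to the diet and to cold compare and combine in each tissue.

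The carboxylic acid receptors are coupled to Gi, which lowers cyclic AMP in the fat cell and so acts as a brake on lipolysis, the release of fatty acids from stored triglyceride. Hcar1 (GPR81) is the lactate receptor and Hcar2 (GPR109A) binds the ketone body beta-hydroxybutyrate and the drug niacin. Ffar2 (GPR43) senses acetate and other short chain fatty acids, Sucnr1 (GPR91) senses succinate, and Gpr84 responds to medium chain fatty acids, mostly on myeloid cells. Ffar4 (GPR120) senses long chain fatty acids and is known as a cold-induced gene of brown fat.

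Of 110 libraries 105 were used. Levels are given as normalized CPM, the counts of a gene per 1000000 counts of the library after scaling by TMM factors of its tissue. Differences in level between tissues used factors over all 4 tissues, so they can depart from the printed levels, even in sign. Depth was 6987895 to 33444374 counts per library in Liver, 12672686 to 31232349 in iBAT, 16607493 to 33141066 in iWAT and 22021114 to 33372110 in eWAT. The libraries left out were 1 Ctrl_CE library of iBAT, 3 Ctrl_RT libraries of eWAT (replicates 2, 4 and 5) and 1 MetR_RT library of eWAT, so eWAT Ctrl_RT rests on 4 libraries. In iBAT the replicate 1 libraries of MetR_RT, Ctrl_CE and MetR_CE carry a treatment tag that names another group than their title, and they were placed by title. In the Liver, iWAT and eWAT libraries of the same mice, tag and title agree and name the group of the iBAT title. Ctrl_CE replicate 4 had the highest summed neutrophil markers of its group in each of the 4 tissues (76.3, 42.5, 62.9 and 85.6 CPM in Liver, iBAT, iWAT and eWAT), and iWAT Ctrl_RT replicate 7 had 198.5. iWAT MetR_RT replicate 6 stood apart by its skeletal muscle markers (19210 CPM). White adipocyte markers were at 27.8 to 52.04 summed CPM in the Ctrl_RT libraries of Liver and at 11910 to 13250 in those of iBAT. In whole tissue, fewer cells of a type and less RNA per cell cannot be told apart.

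"Higher" and "lower" describe Hcar1 and Hcar2. "Rose" and "fell" are kept for genes called by edgeR's quasi-likelihood test, with a Benjamini-Hochberg adjusted p under 0.05 over all genes of the tissue and a change of at least 1.5 times in either direction, the threshold of the study's methods. The 3 comparisons with Ctrl_RT share their control libraries, and the interaction asks whether MetR_CE differs from the sum of both single changes on the log2 scale. Mice give 1 library per tissue, so spreads are between mice. The SE of an edgeR log2 change was taken as its absolute value over the square root of the F statistic of its test. For Hcar1 and Hcar2 it is given as a description and not to be read as a test.

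Hcar1 and Hcar2 are neighbours on the minus strand of chromosome 5, and both are genes of 1 exon in GENCODE M21 (GRCm38). Hcar1 lies at chr5:123876736-123880020 and Hcar2 at chr5:123863570-123865499, with 11236 bases between them. Since they are paralogs, the part of their coding sequence with the longest run of identical bases is shown from coding position 670 to 717 of both genes, read 5′ to 3′ on the minus strand (Hcar1 chr5:123878910-123878957, Hcar2 chr5:123864722-123864769), with the identical run in capitals.
Hcar1: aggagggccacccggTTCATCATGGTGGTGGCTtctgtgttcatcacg
Hcar2: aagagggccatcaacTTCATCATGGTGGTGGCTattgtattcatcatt
The capitals cover 18 bases, and no other identical run between the transcripts (3285 and 1930 bases) was longer. A read of 50 bases that matches both in full does not exist, as 0 stretches of 50 bases, and 0 of 31, are shared. Reads of the neighbours can thus be told apart by their sequence.

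At room temperature on the control diet, Hcar1 had the highest mean per length of the 6 transcripts in both white depots, and Ffar4 in iBAT. In iBAT the libraries overlapped, with Ffar4 at 5.80 to 37.96 per kb and Hcar1 at 5.82 to 13.09. Hcar1 was measured at 42.3 normalized CPM per kb of exon in iWAT (mean, n = 7) and 68.7 in eWAT (n = 4), against 10.7 in iBAT (n = 6). Hcar2 was at 21.6 in iWAT and 22.1 in eWAT, but at 3.13 in iBAT, so both genes stood higher in white than in brown fat. The log2 difference of iWAT minus eWAT was -0.51 ± 0.22 (SE) for Hcar1 and 0.15 ± 0.32 for Hcar2. On the factors over all 4 tissues, used for this difference, Hcar2 was at a mean of 36.3 normalized CPM in iWAT and 32.7 in eWAT. In Liver Hcar1 gave 0 counts in the 7 Ctrl_RT libraries together, which allows up to 3, and 4, 5 and 2 counts in Ctrl_CE, MetR_RT and MetR_CE.

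Ffar2 followed the same order, with 34.6 and 33.8 normalized CPM per kb in iWAT and eWAT, 1.12 in iBAT and 0.0261 in Liver. The level in iBAT was below that in eWAT by a log2 difference of -4.37 ± 0.28 (adjusted p = 7.66e-26), while iWAT and eWAT differed by 0.22 ± 0.25 (adjusted p = 0.582), within their spread. Ffar4 was measured in all 3 fat depots, with 16.95 ± 12.7 (SD) per kb in iBAT, 9.89 in iWAT and 21.3 in eWAT, against 0.199 in Liver. On the factors over all 4 tissues its means were 26.45, 12.07 and 22.85 normalized CPM in iBAT, iWAT and eWAT. The log2 difference of iBAT minus eWAT was 0.21 ± 0.27 (adjusted p = 0.555), and Ffar4 in iWAT was below both iBAT (1.13 ± 0.24 for iBAT minus iWAT, adjusted p = 2.7e-05) and eWAT (-0.92 ± 0.26 for iWAT minus eWAT, adjusted p = 0.00484). Sucnr1 was measured in Liver as well as in fat, with 10.4 per kb in Liver, 9.99 in iWAT, 32.2 in eWAT and 0.908 in iBAT. With the factors over all 4 tissues, Sucnr1 was at a mean of 21.46 normalized CPM in Liver and 14.27 in iWAT. It was lower in iBAT than in iWAT by -3.11 ± 0.29 (adjusted p = 5.06e-17) and lower in Liver than in eWAT by -0.91 ± 0.26 (adjusted p = 0.00177), and Liver minus iWAT was 0.59 ± 0.23 (adjusted p = 0.0247, and 0.0522 in limma voom with the mouse as a block). Differences in level between tissues are common among all genes, with 43.5% of 32143 genes called between Liver and iBAT, 45.8% between Liver and iWAT, 44.9% between Liver and eWAT, 33.3% between iBAT and iWAT, 35.5% between iBAT and eWAT and 16% between iWAT and eWAT. Liver, iBAT with iWAT, and eWAT came in separate count tables with separate runs of library numbers. In these levels tissue and library series thus cannot be told apart, except between iBAT and iWAT.

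**Figure D1:**
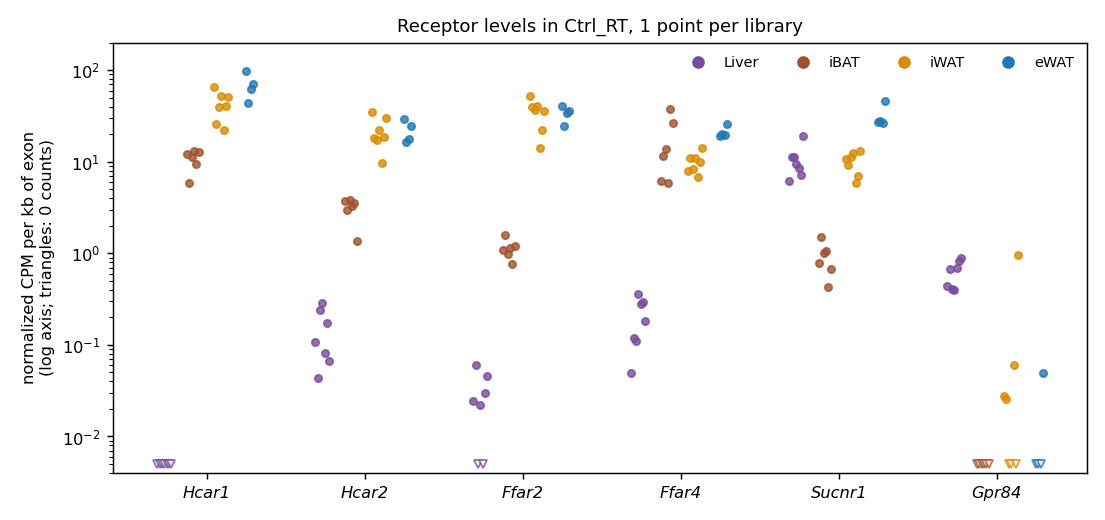
Normalized CPM per kb of exon (log axis) of the 6 receptors in the Ctrl_RT libraries of Liver, iBAT, iWAT and eWAT, 1 point per library, with libraries at 0 counts drawn as triangles. Scaling was within each tissue, so heights of different tissues are not on the scale of the tested differences. By mean, Hcar1 stands highest in eWAT (68.7) and iWAT (42.3), and Ffar4 in iBAT (16.95), where its libraries overlap those of Hcar1. In Liver Sucnr1 (10.4) is the one member well above the others.

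In iBAT both Hcar transcripts were lower after cold, after MetR and after both. Hcar1 ran from 19.1 to 42.99 normalized CPM in the 6 Ctrl_RT libraries (median 38.6), from 5.21 to 8.20 in Ctrl_CE (median 6.80, n = 6), from 10.6 to 22.4 in MetR_RT (median 11.98, n = 7) and from 4.09 to 8.54 in MetR_CE (median 6.21, n = 7). Both cold groups lay below every Ctrl_RT library, while MetR_RT overlapped Ctrl_RT through its replicate 1 at 22.4, a library whose tag and title disagree, and a Ctrl_RT library at 19.1. The log2 fold change of Hcar1 was -2.38 ± 0.20 (SE) in Ctrl_CE, -1.38 ± 0.18 in MetR_RT and -2.49 ± 0.19 in MetR_CE. Cold on top of MetR gave a further -1.11 ± 0.18, and MetR on top of cold -0.12 ± 0.20. Without the 3 libraries with disagreeing tags the changes from Ctrl_RT were -2.33, -1.55 and -2.57.

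Hcar2 was scarcer and moved as much. It ran from 2.66 to 7.39 normalized CPM in iBAT Ctrl_RT (median 6.66), from 0.680 to 1.49 in Ctrl_CE (median 1.04), from 1.003 to 2.55 in MetR_RT (median 1.40) and from 0.725 to 1.61 in MetR_CE (median 1.27). No treated library reached the lowest Ctrl_RT library, whose 2.66 was itself far under the 5.67 to 7.39 of the other 5. Its log2 fold changes in Ctrl_CE, MetR_RT and MetR_CE were -2.50 ± 0.25, -1.96 ± 0.23 and -2.35 ± 0.24. The medians of the 3 treated groups lay close together, and the interaction on the log2 scale was 2.11 ± 0.35 for Hcar2 and 1.26 ± 0.27 for Hcar1, that is, MetR_CE stood above the sum of both single changes. The share of all 23915 genes called in iBAT was 14.7% in Ctrl_CE, 2.5% in MetR_RT, 14.7% in MetR_CE and 0.372% for the interaction.

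In iWAT the pair was again lower in each treated group, by less. Hcar1 ran from 72.7 to 213.2 normalized CPM in Ctrl_RT (median 134.1), from 42.2 to 59.2 in Ctrl_CE (median 47.3), from 52.8 to 158.8 in MetR_RT (median 67.1) and from 64.1 to 86.9 in MetR_CE (median 79.3, n = 6). Ctrl_CE lay wholly below Ctrl_RT, the other groups overlapped it, and MetR_CE lay wholly above Ctrl_CE. Against Ctrl_RT the log2 fold changes were -1.49 ± 0.22, -0.67 ± 0.22 and -0.84 ± 0.23, with 0.65 ± 0.23 for MetR_CE against Ctrl_CE.

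Hcar2 in iWAT ran from 18.7 to 67.3 normalized CPM in Ctrl_RT (median 36.2), from 10.9 to 23.4 in Ctrl_CE (median 17.8), from 13.04 to 39.6 in MetR_RT (median 19.98) and from 21.2 to 32.1 in MetR_CE (median 25.8). Every treated group overlapped Ctrl_RT here, with log2 fold changes of -1.26 ± 0.24, -0.82 ± 0.24 and -0.64 ± 0.25. The interaction was 1.32 ± 0.32 for Hcar1 and 1.44 ± 0.34 for Hcar2, so cold and MetR together stood above the sum of their single changes. With apeglm shrinkage in DESeq2 both interactions in iWAT were close to 0 (1.29e-05 and 1.21e-05). DESeq2 without the shrinkage kept both within the spread between libraries of the edgeR values. The background of called genes in iWAT was 15.9% in Ctrl_CE, 11.6% in MetR_RT, 22.4% in MetR_CE and 1.65% for the interaction. Macrophages also carry Hcar2, and their markers were lower in the same groups, lowest in MetR_CE, where Hcar2 was highest among the treated groups. The part of these cells in the Hcar2 values was not tested. The summed level of the markers ran from 2214 to 3754 CPM in Ctrl_RT (median 2320), 494 to 2549 in Ctrl_CE (median 1009), 424 to 1801 in MetR_RT (median 750) and 337 to 809 in MetR_CE (median 427), and 11, 11 and 12 of the 12 markers fell.

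In eWAT the outcome for Hcar1 and Hcar2 turns on which Ctrl_RT libraries are kept. Hcar1 was at 322, 144.4, 205.6 and 230.1 normalized CPM in Ctrl_RT replicates 1, 3, 6 and 7. It ran from 49.1 to 96.7 in Ctrl_CE (median 69.3, n = 7), from 49.5 to 152.5 in MetR_RT (median 69.8, n = 6) and from 93.0 to 135.4 in MetR_CE (median 109.6, n = 7). Ctrl_CE and MetR_CE did not reach the lowest of the 4 Ctrl_RT libraries, and MetR_RT overlapped them through 1 library. The log2 fold changes were -1.73 ± 0.23, -1.47 ± 0.24 and -0.99 ± 0.23, with an interaction of 2.21 ± 0.32, MetR_CE against Ctrl_CE of 0.74 ± 0.21 and MetR_CE against MetR_RT of 0.48 ± 0.21.

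Hcar2 in eWAT was at 57.2, 31.7, 34.5 and 47.3 normalized CPM in the same 4 Ctrl_RT libraries. It ran from 12.99 to 26.2 in Ctrl_CE (median 17.5), from 13.4 to 21.6 in MetR_RT (median 16.3) and from 16.2 to 29.7 in MetR_CE (median 25.6), and no treated library reached the lowest of the 4. The log2 fold changes were -1.18 ± 0.19, -1.37 ± 0.20 and -0.83 ± 0.19, and the interaction was 1.72 ± 0.26. The 3 Ctrl_RT libraries that were left out held the pair at the level of the treated groups, with 44.2, 100.6 and 58.6 normalized CPM for Hcar1 and 12.4, 15.9 and 10.5 for Hcar2 in replicates 2, 4 and 5. White adipocyte markers summed to 19320 to 26790 CPM in the 4 eWAT libraries left out, against 34290 to 44420 in the kept Ctrl_RT libraries and 28060 to 46820 in the kept treated ones, and their part in these values was not tested. With them and the left-out MetR_RT library in the fit, the changes of Hcar1 were -1.21, -1.02 and -0.45 and those of Hcar2 -0.66, -0.93 and -0.30, all still below 0. Few genes of eWAT were called at all, 2.42% of 27786 in Ctrl_CE, 0.115% in MetR_RT, 1.3% in MetR_CE and 2.3% for the interaction.

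**Figure D2:**
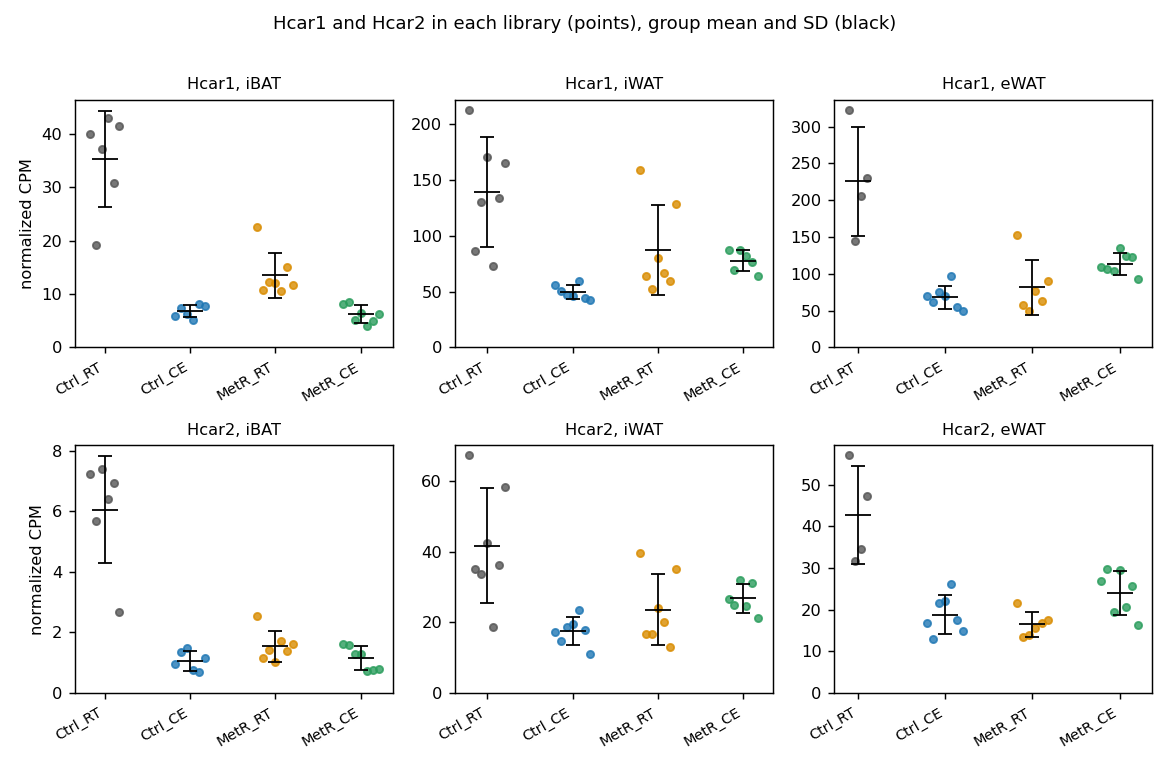
Normalized CPM (linear axes from 0) of Hcar1 and Hcar2 in every kept library of iBAT, iWAT and eWAT, by group, with the mean ± SD. In iBAT Hcar2 of all treated libraries stays at or under 2.55 against at least 2.66 in Ctrl_RT, and in eWAT the 4 Ctrl_RT libraries (Hcar1 144.4 to 322) stand above both cold groups.

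Set side by side, the log2 changes of the pair in both cold groups were lower in brown than in white fat. The log2 change of Hcar1 in Ctrl_CE was lower in iBAT than in iWAT by -0.87 ± 0.32 and than in eWAT by -0.65 ± 0.34, and that of Hcar2 by -1.22 ± 0.35 and -1.32 ± 0.37. In MetR_CE these differences were -1.68 ± 0.32 and -1.50 ± 0.34 for Hcar1 and -1.72 ± 0.34 and -1.50 ± 0.36 for Hcar2. Between iWAT and eWAT the Ctrl_CE changes differed by 0.22 ± 0.32 for Hcar1 and -0.10 ± 0.32 for Hcar2.

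Hcar1 and Hcar2 varied together over the groups of each depot. Over 12 group means (3 depots by 4 groups), with the mean of each depot subtracted from the log2 CPM, Pearson's r between them was 0.962. The 12 means share libraries of the same mice and the Ctrl_RT groups, and both genes were chosen for this change, so the value is a description. Of 12165 genes with at least 1 normalized CPM in each fat depot, those with the highest r to Hcar1 were Tnip1 (0.978), Camk2d (0.968), Steap4 (0.964), Hcar2 (0.962) and Katnal2 (0.960). For Hcar2 they were Adcy5 (0.966), which encodes an adenylyl cyclase, Hcar1 (0.962), Steap4 (0.955), Fbxo36 (0.947) and Tnip1 (0.941). Among the other receptors, Ffar2 had an r of 0.886 with Hcar1 and 0.918 with Hcar2, Ffar4 had -0.693 and -0.657, and Sucnr1 had 0.502 with Hcar1. With all libraries in the means, Steap4, Camk2d and Hcar2 stayed among the 5 for Hcar1, and Adcy5, Steap4 and Hcar1 among those for Hcar2.

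**Figure D3:**
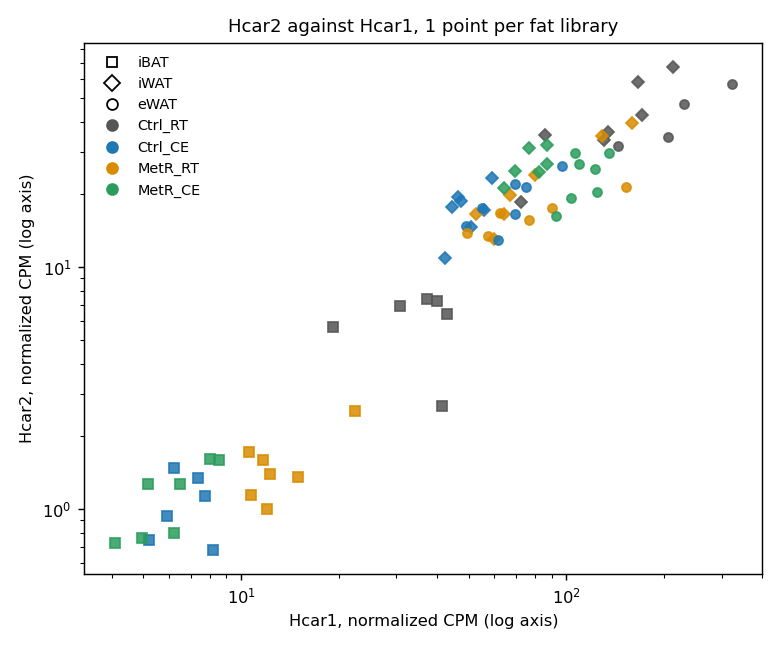
Hcar2 against Hcar1 in normalized CPM (log axes), 1 point per kept library of iBAT, iWAT and eWAT, coloured by group. Libraries of iBAT lie at the lower left (Hcar1 4.09 to 42.99) and those of the white depots at the upper right, and a Ctrl_RT library of iBAT lies apart from its group with Hcar1 at 41.5 and Hcar2 at 2.66.

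Ffar2 fell with the pair in brown fat. Its level in iBAT was 2.12 to 4.38 normalized CPM in Ctrl_RT (median 3.09), 0.612 to 1.24 in Ctrl_CE (median 1.05), 0.350 to 1.96 in MetR_RT (median 1.21) and 0.239 to 2.46 in MetR_CE (median 0.863). Ctrl_CE and MetR_RT lay below every Ctrl_RT library and MetR_CE overlapped them. The log2 fold changes were -1.63 ± 0.33 (adjusted p = 0.000238), -1.37 ± 0.32 (adjusted p = 0.00699) and -1.56 ± 0.32 (adjusted p = 0.000256), and the interaction of 1.44 ± 0.47 did not pass (adjusted p = 0.145). With Ffar2, 2 of the 3 tested members measured in iBAT fell in Ctrl_CE, 1 in MetR_RT and 2 in MetR_CE, beside 14.7%, 2.5% and 14.7% of all genes called in either direction. Macrophage markers, whose cells carry Ffar2 too, were at 113 to 191 summed CPM in iBAT Ctrl_RT, 73.1 to 164 in Ctrl_CE, 55.4 to 106 in MetR_RT and 45.99 to 81.1 in MetR_CE, with 0, 8 and 11 of 12 called lower. The part of these cells in the Ffar2 values was not tested.

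In iWAT Ffar2 ran from 39.95 to 146.7 normalized CPM in Ctrl_RT (median 103.7), from 45.7 to 86.1 in Ctrl_CE (median 55.9), from 45.4 to 143.8 in MetR_RT (median 79.7) and from 74.4 to 108.7 in MetR_CE (median 84.8). All groups overlapped. The change in Ctrl_CE of -0.71 ± 0.23 was called (adjusted p = 0.0223), and was lost without Ctrl_CE replicate 4 (adjusted p = 0.0513). Those in MetR_RT (-0.08, adjusted p = 0.86) and MetR_CE (-0.15, adjusted p = 0.675) were not called.

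In eWAT Ffar2 was at 112.2, 69.1, 96.3 and 99.9 normalized CPM in the 4 Ctrl_RT libraries, from 48.3 to 160 in Ctrl_CE (median 59.8), from 61.5 to 97.98 in MetR_RT (median 75.9) and from 78.1 to 113.1 in MetR_CE (median 89.1). Groups overlapped and no change was called, with -0.31 ± 0.23 in Ctrl_CE (adjusted p = 0.528). Without Ctrl_CE replicate 3, at 160, that change was -0.59 (adjusted p = 0.0255) and the interaction 0.80 (adjusted p = 0.0272).

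The difference between depots in the Ffar2 response depended on the model. In MetR_CE the log2 change was lower in iBAT than in iWAT by -1.39 ± 0.40 (adjusted p = 0.00842) and than in eWAT by -1.45 ± 0.42 (adjusted p = 0.0156), in MetR_RT lower than in iWAT by -1.30 ± 0.39 (adjusted p = 0.0298), and in Ctrl_CE lower than in eWAT by -1.32 ± 0.43 (adjusted p = 0.0417). None of the 4 passed in limma voom with the mouse as a block (adjusted p = 0.068, 0.111, 0.238 and 0.365). No voom fit without the block was run, so the method and the block cannot be told apart. The share of all 31224 genes whose change differed between iBAT and iWAT was 8.58% for Ctrl_CE, 3.82% for MetR_RT and 10.4% for MetR_CE, and between iBAT and eWAT it was 4.79% for Ctrl_CE and 5.83% for MetR_CE.

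Ffar4 rose in cold brown fat, opposite to the carboxylic acid receptors. It ran from 8.13 to 53.2 normalized CPM in iBAT Ctrl_RT (median 17.8), from 97.4 to 166 in Ctrl_CE (median 139), from 12.5 to 46.5 in MetR_RT (median 27) and from 75.5 to 145.7 in MetR_CE (median 107.7). Both cold groups lay above every RT library, whatever the diet. The log2 fold change was 2.48 ± 0.34 with cold alone (adjusted p = 7.44e-07), 0.26 ± 0.32 with MetR alone (adjusted p = 0.705) and 2.21 ± 0.33 with both (adjusted p = 3.44e-06). Cold raised it by 1.94 ± 0.31 in MetR mice as well (adjusted p = 1.47e-05, and 0.0641 with the 3 tagged libraries placed by tag), a comparison in which 8.53% of all genes were called. MetR on top of cold gave -0.28 (adjusted p = 0.689), and the interaction was -0.54 ± 0.44 (adjusted p = 0.669).

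In iWAT Ffar4 rose in all 3 comparisons, most with both treatments. Levels were 9.53 to 19.7 normalized CPM in Ctrl_RT (median 13.99), 14.5 to 31.7 in Ctrl_CE (median 20.6), 13.9 to 31.3 in MetR_RT (median 16.6) and 25.1 to 40.7 in MetR_CE (median 33.5). MetR_CE lay above every Ctrl_RT library, and the single treatments overlapped them. The log2 fold changes were 0.61 ± 0.20 (adjusted p = 0.0208), 0.62 ± 0.20 (adjusted p = 0.0242) and 1.23 ± 0.21 (adjusted p = 3.15e-05), and the interaction was -0.01 (adjusted p = 0.999). The call in MetR_RT was lost with only the compared groups in the fit (adjusted p = 0.0534). Neither step from a single treatment to both was called for any member in iWAT (Ffar4 0.60 with adjusted p = 0.0798 from MetR_RT and 0.62 with adjusted p = 0.0917 from Ctrl_CE, where 1.88% and 2.27% of all genes were called).

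Brown adipocyte markers moved in the same iWAT libraries, where 15.9%, 11.6% and 22.4% of all genes were called. In each comparison 8 of 8 of these markers were higher, with a median log2 change of 2.35, 2.42 and 3.24. Their summed level ran from 97 to 948 CPM in Ctrl_RT (median 351), 936 to 6215 in Ctrl_CE (median 3633), 519 to 5481 in MetR_RT (median 2057) and 3500 to 8170 in MetR_CE (median 5400), and their part in the Ffar4 values was not tested.

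In eWAT Ffar4 was at 27.1, 27.97, 27.7 and 36.4 normalized CPM in Ctrl_RT, from 21.02 to 33.1 in Ctrl_CE (median 25.98), from 23.9 to 42.7 in MetR_RT (median 27.96) and from 33.8 to 52.8 in MetR_CE (median 42.8). MetR_CE lay wholly above Ctrl_CE, and all treated groups overlapped Ctrl_RT. MetR on cold gave a rise of 0.74 ± 0.13 (adjusted p = 0.000662), whereas the changes from Ctrl_RT were -0.18 ± 0.15 (adjusted p = 0.564), 0.03 (adjusted p = 0.969) and 0.56 ± 0.15 (adjusted p = 0.0449, below the fold threshold, and called with all libraries at 0.87). The interaction of 0.71 ± 0.20 passed narrowly (adjusted p = 0.0472) and was lost in 19 of 24 fits that left out 1 library and with all libraries (0.51, adjusted p = 0.42). In eWAT MetR_CE against Ctrl_CE, 4.35% of all genes were called, and 2 of the 4 tested members rose.

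The cold response of Ffar4 differed between depots under both models. In Ctrl_CE the log2 change in iBAT exceeded that in iWAT by 1.896 ± 0.36 (adjusted p = 5.95e-05) and that in eWAT by 2.66 ± 0.38 (adjusted p = 5.35e-07), and with the mouse as a block the adjusted p were 1.98e-06 and 3.23e-09. In MetR_CE the excess was 1.65 ± 0.37 over eWAT (adjusted p = 0.00117) and 0.96 ± 0.35 over iWAT, which did not pass (adjusted p = 0.0517) except with the mouse as a block (adjusted p = 0.00394). The step from MetR_RT to MetR_CE was larger in iBAT than in iWAT by 1.33 ± 0.35 (adjusted p = 0.015) and than in eWAT by 1.42 ± 0.34 (adjusted p = 0.00383), where 1.79% and 3.49% of all genes differed. The interaction in iBAT minus that in eWAT was -1.24 ± 0.51 (adjusted p = 0.348, with 0.509% of genes called). Genes with the highest r to Ffar4 over the 12 group means were Selenoi (0.988), Pde7b (0.987), H13 (0.987), Fez2 (0.983) and Pcdh1 (0.982).

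**Figure D4:**
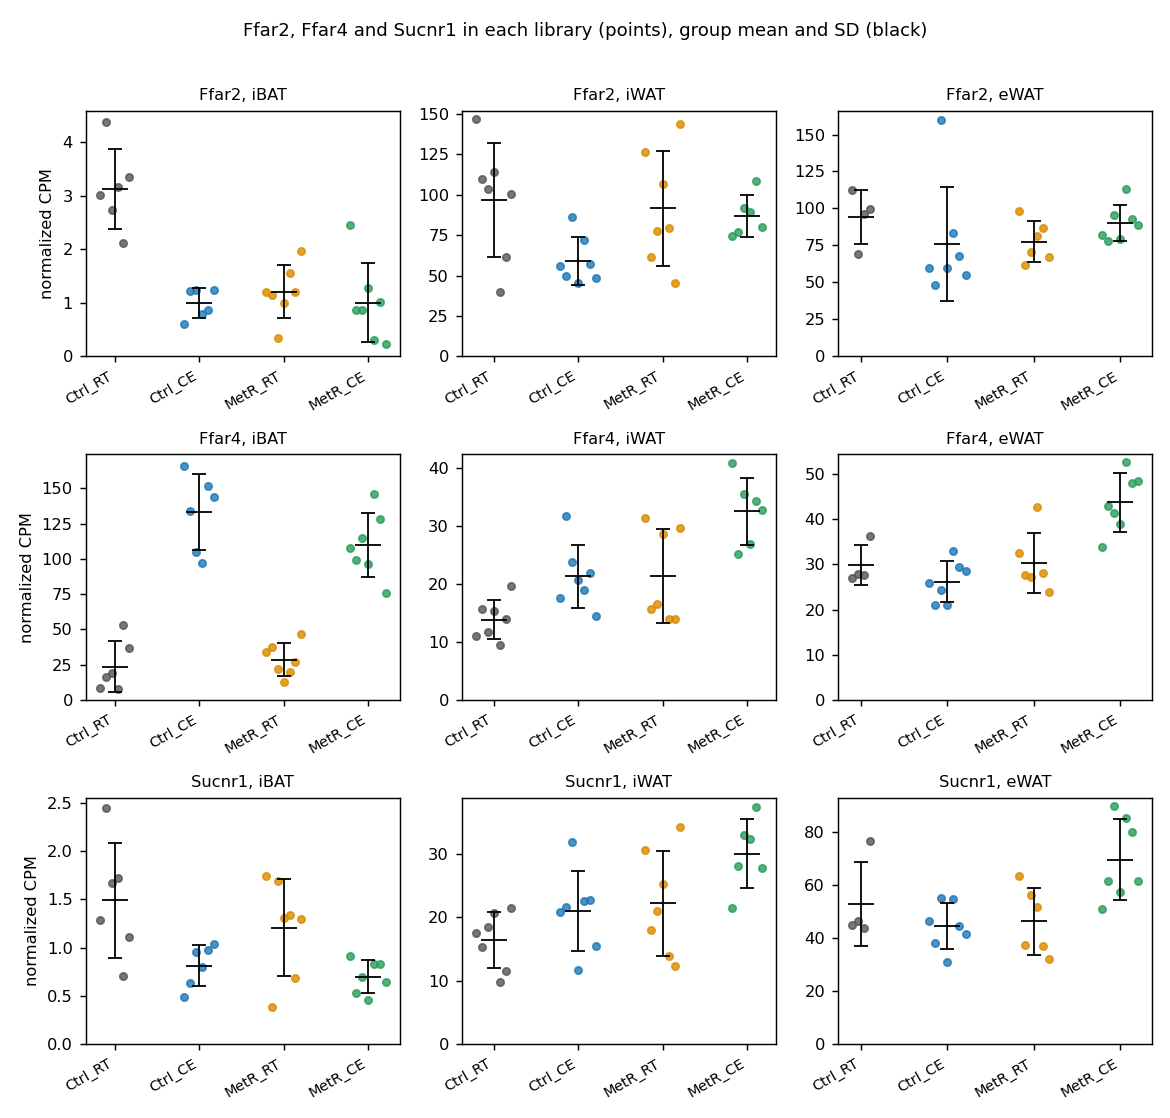
Normalized CPM (linear axes from 0) of Ffar2, Ffar4 and Sucnr1 in every kept library of iBAT, iWAT and eWAT, by group, with the mean ± SD. Ffar4 in iBAT stands at 75.5 or more in the cold and at 53.2 or less at RT, and Ffar2 and Sucnr1 are near the bottom of their range in iBAT (at most 4.38 and 2.45).

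The promoters of Hcar1 and Ffar4 are shown because both genes moved in the cold and in opposite directions. Each is given as the 250 bases before the start of the gene in RefSeq (GRCm38.p6), 5′ to 3′ along the gene, Hcar1 at chr5:123880004-123880253 on the minus strand and Ffar4 at chr19:38096829-38097078 on the plus strand. A match to either searched motif would stand in capitals, and none does.
Hcar1: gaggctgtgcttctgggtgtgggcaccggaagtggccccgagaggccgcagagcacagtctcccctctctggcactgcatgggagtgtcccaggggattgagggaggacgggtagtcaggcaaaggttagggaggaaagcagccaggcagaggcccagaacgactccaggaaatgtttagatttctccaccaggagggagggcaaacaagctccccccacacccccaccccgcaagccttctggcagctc
Ffar4: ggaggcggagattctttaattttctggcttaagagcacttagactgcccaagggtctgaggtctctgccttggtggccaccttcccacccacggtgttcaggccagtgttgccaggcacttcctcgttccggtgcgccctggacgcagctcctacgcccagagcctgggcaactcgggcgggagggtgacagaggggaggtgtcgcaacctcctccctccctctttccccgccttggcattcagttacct
The motifs were AGGTCA, the half-site of nuclear receptors such as the PPARs, and TGACG, the half-site of the cAMP response element, on both strands, and neither overlaps the other. Sucnr1 held neither as well. AGGTCA occurred once on the minus strand before 3 of 4 Ffar2 starts (175, 89 and 142 bases before them) and before Gpr84 (234 bases), and TGACG before none. Of 32851 windows of this length 14% held AGGTCA and 17.8% TGACG. The absence of these letters from this window says nothing on the factors.

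Sucnr1 fell in both cold groups of brown fat, and in iWAT it rose with both treatments together. In iBAT it was scarce, with 0.707 to 2.45 normalized CPM in Ctrl_RT (median 1.48), 0.490 to 1.04 in Ctrl_CE (median 0.871), 0.381 to 1.74 in MetR_RT (median 1.30) and 0.456 to 0.913 in MetR_CE (median 0.699). Every group overlapped Ctrl_RT. The log2 fold changes were -0.86 ± 0.29 in Ctrl_CE (adjusted p = 0.0203), -0.29 in MetR_RT (adjusted p = 0.595) and -1.08 ± 0.29 in MetR_CE (adjusted p = 0.00367), and cold in MetR mice gave -0.78 ± 0.29 (adjusted p = 0.042, and 0.0533 with no filter on low counts). Without the 3 libraries with disagreeing tags the Ctrl_CE change was -0.75 (adjusted p = 0.0557).

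In iWAT Sucnr1 ran from 9.74 to 21.5 normalized CPM in Ctrl_RT (median 17.5), from 11.7 to 31.9 in Ctrl_CE (median 21.7), from 12.3 to 34.3 in MetR_RT (median 21.04) and from 21.5 to 37.5 in MetR_CE (median 30.3), which lay above Ctrl_RT in every library. Only this last change was called, at 0.88 ± 0.23 (adjusted p = 0.00286), against 0.36 (adjusted p = 0.235) and 0.44 (adjusted p = 0.159) for the single treatments. The part of macrophages, whose markers fell in the same iWAT libraries, was not tested. Of the tested members other than Gpr84, Ffar4 and Sucnr1 rose in iWAT MetR_CE, Ffar4 rose and Ffar2 fell in Ctrl_CE, and Ffar4 rose in MetR_RT. Beside these, 22.4%, 15.9% and 11.6% of all genes were called. Gpr84 was called lower in all 3 comparisons, but it passed the filter of 10 counts in iWAT only through Ctrl_RT, so its calls are left aside. They are also lost without Ctrl_RT replicate 7 (adjusted p = 0.237, 0.858 and 0.769 in MetR_CE, Ctrl_CE and MetR_RT).

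In eWAT Sucnr1 was at 44.7, 46.2, 43.6 and 76.4 normalized CPM in Ctrl_RT, 30.7 to 54.8 in Ctrl_CE (median 44.4), 31.95 to 63.3 in MetR_RT (median 44.3) and 50.8 to 89.7 in MetR_CE (median 61.3). All groups overlapped Ctrl_RT, and no change from it was called. MetR_CE against Ctrl_CE was called at 0.65 ± 0.17 (adjusted p = 0.0163), but not with all libraries (adjusted p = 0.114), whereas MetR_CE against Ctrl_RT was then called (0.80, adjusted p = 0.03). The interaction of 0.84 ± 0.27 was not (adjusted p = 0.089).

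The Sucnr1 change in MetR_CE differed between iBAT and iWAT under both models, and between iBAT and eWAT under 1 of them. The log2 change in iBAT was lower than in iWAT by -1.97 ± 0.37 (adjusted p = 4.28e-05, and 0.0121 with the mouse as a block) and than in eWAT by -1.47 ± 0.39 (adjusted p = 0.00727, and 0.114 with the mouse as a block). For Ctrl_CE the difference to iWAT was -1.19 ± 0.37 (adjusted p = 0.0187, and 0.248 with the mouse as a block), and for the step from MetR_RT to MetR_CE the difference to eWAT was -1.36 ± 0.38 (adjusted p = 0.0142, and 0.226 with the mouse as a block).

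Liver expressed Sucnr1 well and the other members hardly. Sucnr1 ran from 10.2 to 30.99 normalized CPM in Ctrl_RT (median 15.4), from 3.54 to 29.97 in Ctrl_CE (median 23.2), from 20.1 to 41.2 in MetR_RT (median 29.2) and from 16.1 to 27.2 in MetR_CE (median 25.6), with overlap throughout. It rose in MetR_RT by 0.85 ± 0.26 (adjusted p = 0.0205), where 6.91% of 22143 genes were called, and changed by 0.29 (adjusted p = 0.444) in Ctrl_CE and 0.46 (adjusted p = 0.205) in MetR_CE, where 11.9% and 13.5% were called. Hcar2 in Liver stayed at or under 0.56 normalized CPM save in Ctrl_CE replicate 4, at 8.11 from 87 counts. Without that library its change in Ctrl_CE was 0.15, against 2.15 ± 0.74 with it. Ffar4 gave 27, 29, 13 and 5 counts in the Ctrl_RT, Ctrl_CE, MetR_RT and MetR_CE groups of Liver, and the change in MetR_CE was called (-2.31 ± 0.73, adjusted p = 0.0157) on these few counts. Ffar2 gave at most 6 counts in any Liver library.

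Gpr84 was close to absent from fat. It gave 2 counts in all of iBAT, 2, 7, 5 and 6 counts in the 4 groups of eWAT, and 60, 5, 3 and 1 in those of iWAT, 56 of the 60 coming from Ctrl_RT replicate 7, the library with the highest neutrophil markers of iWAT. The calls of Gpr84 in iWAT rest on this library (-2.79 ± 1.02, -3.59 ± 1.09 and -4.64 ± 1.25 in Ctrl_CE, MetR_RT and MetR_CE, adjusted p = 0.0386, 0.0171 and 0.00421). Without it the changes were 0.25 (adjusted p = 0.858), -0.56 (adjusted p = 0.769) and -1.59 (adjusted p = 0.237). Liver held the highest Gpr84 level, with medians of 1.17, 0.836, 0.619 and 1.03 normalized CPM in Ctrl_RT, Ctrl_CE, MetR_RT and MetR_CE and overlap between all groups, and no change in Liver was called.

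**Figure D5:**
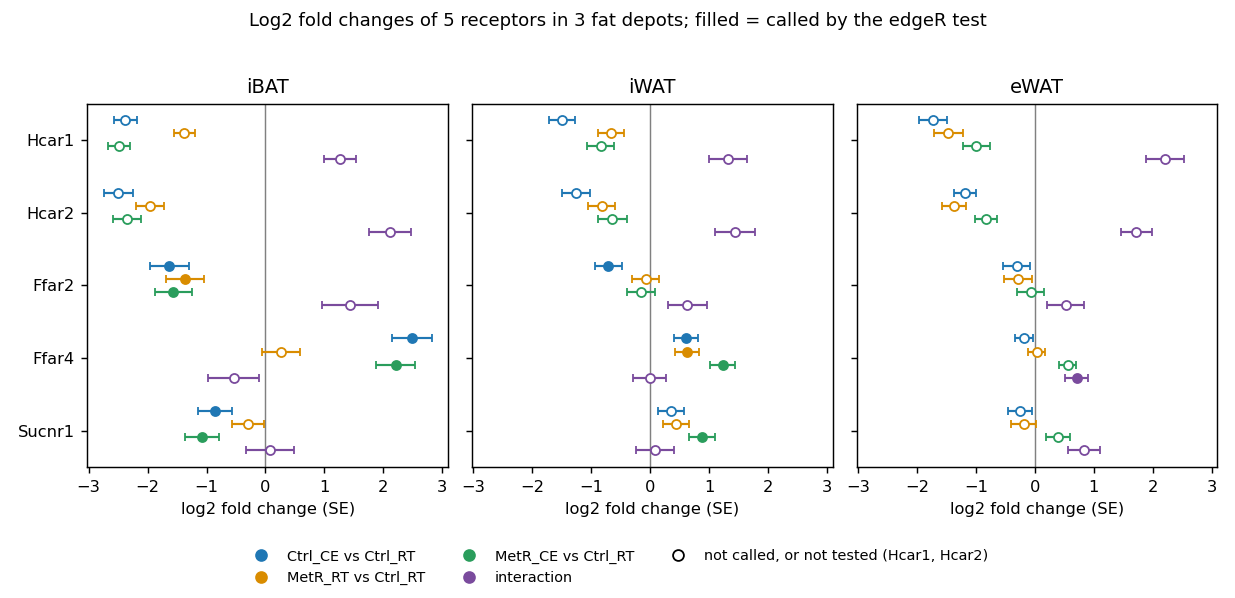
Log2 fold change ± SE of 5 receptors in iBAT, iWAT and eWAT for Ctrl_CE, MetR_RT and MetR_CE against Ctrl_RT and for the interaction, with filled symbols for called changes and open ones for changes not called or, for Hcar1 and Hcar2, not tested. Hcar1 and Hcar2 lie below 0 in each comparison with Ctrl_RT and above 0 for the interaction in all 3 depots, and Ffar4 in iBAT lies above 2 in both cold groups.

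The ligand side of these receptors was described with lists of enzymes and carriers, whose RNA in fat does not measure the ligands. Of all genes, 15.9%, 11.6% and 22.4% were called in iWAT in Ctrl_CE, MetR_RT and MetR_CE, in either direction. The shares were 14.7%, 2.5% and 14.7% in iBAT and 2.42%, 0.115% and 1.3% in eWAT. For lactate, the ligand of Hcar1, 5 of 8 genes rose and 1 fell in iWAT Ctrl_CE, 4 rose in MetR_RT, and 4 rose and 1 fell in MetR_CE, with median log2 changes of 0.73, 0.62 and 0.63 against -0.11, -0.03 and -0.08 over all genes tested. Ldhb, the lactate dehydrogenase subunit favoured by oxidative tissue, rose by 1.47 ± 0.29 (adjusted p = 0.000384), 1.65 ± 0.29 (adjusted p = 0.000232) and 2.10 ± 0.31 (adjusted p = 4.9e-06), and Mpc2, a subunit of the mitochondrial pyruvate carrier, by 1.14 ± 0.19 in Ctrl_CE (adjusted p = 4.36e-05). In iBAT 1 of 8 fell in Ctrl_CE (Slc16a7, the monocarboxylate carrier MCT2, -1.30 ± 0.21, adjusted p = 1.67e-05), none was called in MetR_RT, and in MetR_CE 2 rose, among them Ldha (0.67 ± 0.06, adjusted p = 5.35e-10), and 1 fell, with medians of 0.23, 0.12 and 0.25 against -0.08, -0.04 and -0.10. In eWAT Mpc2 rose in Ctrl_CE (1.09 ± 0.29, adjusted p = 0.0294) and Slc16a1, the lactate carrier MCT1, fell in MetR_CE (-1.43 ± 0.18, adjusted p = 0.000161).

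For ketone bodies, the ligands of Hcar2, the list of enzymes and carriers did not move one way, with 1 of 7 higher and 1 lower in both cold groups of iBAT and 1 lower in MetR_RT. In iWAT it was 1 and 2 each time, and in eWAT 0 and 1, 0 and 0, and 0 and 0. Beside these, 14.7%, 2.5% and 14.7% of all genes were called in iBAT and 15.9%, 11.6% and 22.4% in iWAT. Bdh1, which interconverts acetoacetate and beta-hydroxybutyrate, rose in iBAT by 3.30 ± 0.35 in Ctrl_CE (adjusted p = 1.33e-08) and 1.903 ± 0.36 in MetR_CE (adjusted p = 0.000102). Medians lay between -0.25 and 0.06 in the 3 depots. These values are of RNA in fat, while in serum the paper found more beta-hydroxybutyrate with cold or with MetR.

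For succinate, the ligand of Sucnr1, 6 of 9 genes rose and 1 fell in each iWAT comparison, with medians of 0.76, 0.87 and 0.94, where 15.9%, 11.6% and 22.4% of all genes were called. Sdhd, a subunit of succinate dehydrogenase, rose by 1.07 ± 0.18 in Ctrl_CE (adjusted p = 5.17e-05), and the succinyl-CoA ligase subunits Suclg1 and Sucla2 rose by 1.36 ± 0.22 and 1.35 ± 0.22 in MetR_RT (adjusted p = 0.000135 and 0.000138). Slc13a3, a plasma membrane carrier of succinate, fell by 1.45 ± 0.28 in Ctrl_CE (adjusted p = 0.000325) and 2.62 ± 0.32 in MetR_CE (adjusted p = 5.13e-07). In iBAT none of 9 was called in either single treatment and 2 fell in MetR_CE, and in eWAT 1 of 10 rose in Ctrl_CE (Slc25a10, the mitochondrial dicarboxylate carrier, 1.13 ± 0.30, adjusted p = 0.0298) and none was called in the other comparisons with Ctrl_RT.

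Enzymes of short and medium chain fatty acids rose for 4 of 8 genes in each iWAT comparison, with 2, 0 and 1 lower (medians 0.68, 0.80 and 0.36). Of all genes, 15.9%, 11.6% and 22.4% were called in these iWAT comparisons. Acads, the short chain acyl-CoA dehydrogenase, rose by 0.69 ± 0.13 in Ctrl_CE (adjusted p = 0.000225). In iBAT 1 rose and 4 fell in Ctrl_CE, none was called in MetR_RT, and 1 rose and 3 fell in MetR_CE, with Acss3, a mitochondrial acyl-CoA synthetase of short chain acids, at -1.62 ± 0.13 in Ctrl_CE (adjusted p = 5.49e-11). There 14.7%, 2.5% and 14.7% of all genes were called in Ctrl_CE, MetR_RT and MetR_CE. In eWAT none was called against Ctrl_RT, and Acss2, which activates acetate, had an interaction of -4.29 ± 0.87 (adjusted p = 0.0107).

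Of 12 other receptors for metabolites, none was called higher in fat against Ctrl_RT. In iWAT 4 of 9 fell in Ctrl_CE, 5 in MetR_RT and 6 in MetR_CE (medians -0.91, -0.81 and -1.32), led by Gpr35 (-1.87 ± 0.28, -2.26 ± 0.29 and -3.21 ± 0.32, adjusted p = 2.06e-05, 2.53e-05 and 8.96e-08) and the proton sensor Gpr65 (-1.89 ± 0.33, -2.09 ± 0.33 and -3.04 ± 0.37, adjusted p = 8.56e-05, 8.87e-05 and 5.13e-07). Both are also genes of leukocytes, and the macrophage markers of iWAT fell in the same comparisons. Their part in these changes was not tested. In iBAT 1 of 9 fell in Ctrl_CE, none was called in MetR_RT and 3 fell in MetR_CE, and in eWAT none of 8 was called against Ctrl_RT. Of all genes, 15.9%, 11.6% and 22.4% were called in iWAT in Ctrl_CE, MetR_RT and MetR_CE, and 14.7%, 2.5% and 14.7% in iBAT.

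Of 6 other Gi-coupled brakes on lipolysis, Ptger3, a prostaglandin E2 receptor (-1.13 ± 0.15, adjusted p = 4.88e-07), and Adora1, the adenosine A1 receptor (-0.89 ± 0.12, adjusted p = 5.29e-07), fell in iBAT Ctrl_CE and 4 were not called. None was called in MetR_RT and 3 fell in MetR_CE, with medians of -0.50, -0.28 and -0.66, beside 14.7%, 2.5% and 14.7% of all genes called. In iWAT Adora1 went the other way, with 0.64 ± 0.10 in MetR_RT (adjusted p = 8e-05) and 0.76 ± 0.10 in MetR_CE (adjusted p = 1.78e-06), and 1, 2 and 2 of 6 rose while 0, 0 and 1 fell. Of all genes, 15.9%, 11.6% and 22.4% were called there. In eWAT none was called against Ctrl_RT. The interaction of Ptger3 was -1.56 ± 0.42 in iWAT (adjusted p = 0.039) and -2.75 ± 0.61 in eWAT (adjusted p = 0.0163), opposite in sign to that of Hcar1 and Hcar2.

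Of the Gs-coupled drivers of lipolysis 3 of 7 fell in iBAT in Ctrl_CE, 2 in MetR_RT and 3 in MetR_CE and the rest were not called (medians -0.42, -0.38 and -0.32), where 14.7%, 2.5% and 14.7% of all genes were called. They were led by Mc5r, a melanocortin receptor (-2.11 ± 0.23 in Ctrl_CE, adjusted p = 2.49e-08). In iWAT Adrb1 rose by 1.54 ± 0.27, 1.03 ± 0.27 and 1.59 ± 0.27 (adjusted p = 9.65e-05, 0.00528 and 4.14e-05), and Adrb3, the main adrenergic receptor of mouse fat, fell in both cold groups (-0.66 ± 0.20 and -0.67 ± 0.21, adjusted p = 0.0122 and 0.0114). In eWAT Adrb3 fell by 1.13 ± 0.16 in Ctrl_CE (adjusted p = 0.000316) and 0.83 ± 0.16 in MetR_CE (adjusted p = 0.00452).

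Downstream of the receptors, the list of Gi subunits, kinases, arrestins and phosphodiesterases held few calls, with 1 of 14 higher and 2 lower in both cold groups of iBAT and 1 lower in MetR_RT. In iWAT the counts were 2 and 1, 2 and 1, and 3 and 1, and in eWAT 1 and 1, 0 and 0, and 0 and 0. Medians lay within -0.03 and 0.12. Of all genes, 14.7%, 2.5% and 14.7% were called in iBAT, 15.9%, 11.6% and 22.4% in iWAT and 2.42%, 0.115% and 1.3% in eWAT. Arrb1, an arrestin that uncouples receptors from their G proteins, fell in iBAT in all 3 comparisons (-0.95 ± 0.10, -0.88 ± 0.09 and -1.40 ± 0.09, adjusted p = 4.28e-09, 7.77e-07 and 2.45e-12), and Gnao1 rose in all 3 of iWAT (1.58 ± 0.26 in Ctrl_CE, adjusted p = 4.71e-05). Pde3b, which degrades cyclic AMP in fat cells, fell in eWAT Ctrl_CE (-0.64 ± 0.11, adjusted p = 0.00144) with an interaction of 0.76 ± 0.14 (adjusted p = 0.00855).

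Among the PPARs, retinoid X receptors and their coactivators, which are known regulators of adipocyte receptor genes, Ppargc1a rose in iBAT in both cold groups (2.44 ± 0.21 and 2.37 ± 0.21, adjusted p = 2.9e-10 and 4.2e-10) and no other of the 8 was called there. In iWAT 4, 3 and 5 of 8 rose and none fell (medians 0.61, 0.51 and 0.75), with Pparg at 0.69 ± 0.13 in Ctrl_CE (adjusted p = 0.0003), and in eWAT none was called. Most white adipocyte markers were not called in any depot. In iWAT 2, 0 and 5 of 11 rose and none fell, with medians of 0.24, 0.26 and 0.42, in iBAT 1 rose each time while 2, 2 and 3 fell, with medians of -0.10, -0.20 and -0.08, and in eWAT 1 fell in Ctrl_CE (Adipoq, -0.68 ± 0.18, adjusted p = 0.0319) with no other call. Of all genes, 15.9%, 11.6% and 22.4% were called in iWAT, 14.7%, 2.5% and 14.7% in iBAT and 2.42%, 0.115% and 1.3% in eWAT.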

How the data were processed

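Poly(A) RNA was sequenced (NEBNext libraries, paired reads, Illumina NovaSeq). Per the paper's methods, the authors aligned reads to mm10/GRCm38 with STAR 2.7.9a and counted genes with featureCounts 2.0.3, and in parallel ran Salmon 1.9.0 with tximport. The deposited tables are named for Salmon. The deposited values are raw, whole-number counts per gene, without normalization, and the authors tested them with DESeq2 1.46.0. All 110 sample columns were used and 0 were left over. Columns of the authors' comparisons were not used.

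Groups came from the sample titles. The 5 libraries left out by the study were identified by their number per group in the paper and by matching mean normalized counts over each tissue to the base means in its source data. The members and lists were chosen with earlier results of these data known. Genes with under 10 counts in a tissue were dropped (22143, 23915, 26428 and 27786 tested in Liver, iBAT, iWAT and eWAT). Each tissue was fitted with its 4 groups in edgeR 4.0.16 (TMM, quasi-likelihood test, R 4.3.3). The log2 CPM values were made with a prior count of 2. Differences between depots and tissues came from 1 edgeR fit over libraries, and limma 3.58.1 (voom, mouse as block) was the alternative (mouse correlation 0.0535 in fat and 0.0328 over 4 tissues). Scripts were tested on simulated data.

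Named genes were the 6 members everywhere, at most 3 called genes with the smallest p per list, tissue and comparison, and the 5 genes most like Hcar1, Hcar2 and Ffar4. A few genes that this rule takes in are not reported here. The lists held receptors, Gi, Gs and downstream signalling genes, enzymes and carriers of the ligands, PPARs, and markers of adipocytes and of 7 other cell types. Alternatives were RLE factors, filterByExpr or no filter, only the compared groups, all libraries, leaving out libraries, the replicate number as a block, the 3 tagged iBAT libraries by tag or left out, and DESeq2 1.42.0 without and with apeglm 1.24.0. Leaving out single Liver, iBAT and iWAT libraries was chosen after seeing the data. Gene models were those of GENCODE M21, whereas the paper names vM25. The promoter windows came from RefSeq (GRCm38.p6), which gave start sites for 5 of 6 members and none for Hcar2. The transcript and coding sequences of Hcar1 and Hcar2 were those of GENCODE M21.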

Additional observations from a re-analysis of the deposited data

Results flagged for a closer look

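In 9 of 71 groups of 4 to 10 libraries, 1 library lay outside the others by Dixon's test at 95%, which chance would do in about 1 of 20, and these came from 7 libraries of 4 mice. The libraries of tissues share mice, and 5 of the 9 came from 1 Ctrl_RT mouse (replicate 6 in iBAT and 7 in the other tissues). Hcar1 in iBAT MetR_RT was at 22.4 normalized CPM in replicate 1, whose tag and title disagree, against 10.6 to 14.97 in the others. Hcar2 in iBAT Ctrl_RT replicate 6 was at 2.66 against 5.67 to 7.39. Hcar2 in Liver Ctrl_CE replicate 4 was at 8.11 against 0.139 to 0.523, and Gpr84 in the same library at 2.61 against 0.514 to 1.16, in a library with high neutrophil markers. Gpr84 in iWAT Ctrl_RT replicate 7 was at 1.68 against 0 to 0.104, again with high neutrophil markers. Ffar2 in eWAT Ctrl_CE replicate 3 was at 160 against 48.3 to 83.3. Ffar4 (36.4 against 27.1 to 27.97) and Sucnr1 (76.4 against 43.6 to 46.2) were highest in eWAT Ctrl_RT replicate 7, 1 of the 4 control libraries there, and Sucnr1 in Liver Ctrl_RT replicate 7 was at 30.99 against 10.2 to 18.6.

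The changes below differed between depots by edgeR's test of the difference itself, which takes depots of the same mouse as independent. As log2 change in iBAT minus that in the other depot, they were 1.896 (iWAT) and 2.66 (eWAT) for Ffar4 in Ctrl_CE, 1.65 (eWAT) in MetR_CE, and 1.33 (iWAT) and 1.42 (eWAT) for cold in MetR mice. All of these passed in limma voom with the mouse as a block as well. For Ffar2 they were -1.32 (eWAT) in Ctrl_CE, -1.30 (iWAT) in MetR_RT, and -1.39 (iWAT) and -1.45 (eWAT) in MetR_CE, and none passed with the mouse as a block. For Sucnr1 they were -1.19 (iWAT) in Ctrl_CE, -1.97 (iWAT) and -1.47 (eWAT) in MetR_CE, and -1.36 (eWAT) for cold in MetR mice. Of these only the -1.97 passed with the mouse as a block. As voom was not run without the block, the change of method and the block cannot be told apart in the lost calls. The effect of cold on Ffar4 in eWAT differed between the diets by 0.71, a call lost in 19 of 24 fits that left out 1 library.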

How the results depend on the processing

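Values below are log2 changes unless said otherwise. Of 109 results 60 held under every alternative run for them, and 49 did not under at least 1. A tested result held if it kept its direction and side of the threshold. One of Hcar1 or Hcar2 held if it kept its direction and moved by less than the pooled SD between libraries. For Hcar1 and Hcar2, 205 of 216 alternative values lay within the spread between libraries. The others were those with all eWAT libraries, namely -1.21, -1.02, -0.45 and 1.77 (Ctrl_CE, MetR_RT, MetR_CE and interaction) for Hcar1 and -0.66, -0.93, -0.30 and 1.29 for Hcar2, the interaction in iWAT under apeglm shrinkage (1.29e-05 for Hcar1 and 1.21e-05 for Hcar2), and Hcar2 in Liver Ctrl_CE, which was 0.029 in DESeq2. Of the values without 1 library, all lay within the spread but Hcar2 in Liver Ctrl_CE without replicate 4 (0.15). The cause was not tested in these or the cases below, apart from the smaller number of libraries where some were left out.

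With all eWAT libraries Ffar2 turned to 0.018 in Ctrl_CE and 0.27 in MetR_CE, Ffar4 to 0.11 in Ctrl_CE, and Sucnr1 to 0.14 in Ctrl_CE and 0.12 in MetR_RT. Ffar4 (0.87, adjusted p = 0.00365) and Sucnr1 (0.80, adjusted p = 0.03) were then called in MetR_CE, and the Ffar4 interaction (0.51) and Sucnr1 in MetR_CE against Ctrl_CE (0.66, adjusted p = 0.114) were lost. The Ffar4 interaction in eWAT was also lost with RLE factors (0.68, adjusted p = 0.056), with no filter (0.69, adjusted p = 0.0683) and under apeglm (0.56), and that of Sucnr1 was called in DESeq2 (0.81, adjusted p = 0.0367) and under apeglm (0.60).

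Leaving out 1 library at a time in eWAT gave ranges of -0.59 (without Ctrl_CE replicate 3) to -0.22 for Ffar2 in Ctrl_CE, -0.19 to 0.029 in MetR_CE and 0.43 to 0.80 (without Ctrl_CE replicate 3) for its interaction. The ranges were -0.084 to 0.14 for Ffar4 in MetR_RT, 0.50 to 0.66 in MetR_CE and 0.59 to 0.83 for its interaction, and -0.30 to 0.042 for Sucnr1 in MetR_RT, 0.60 to 0.95 for its interaction and 0.58 (without Ctrl_CE replicate 4) to 0.71 for MetR_CE against Ctrl_CE. In iWAT, without Ctrl_CE replicate 4, Ctrl_RT replicate 7 or MetR_RT replicate 6 in turn, Ffar2 ran from -0.70 to -0.65 in Ctrl_CE and from -0.075 to 0.040 in MetR_RT, the Sucnr1 interaction from -0.023 to 0.0042, and Gpr84 from -3.22 to 0.25 in Ctrl_CE, -3.92 to -0.56 in MetR_RT and -4.64 to -1.60 in MetR_CE, the upper end each time without Ctrl_RT replicate 7.

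In iBAT without the 3 tagged libraries Sucnr1 was -0.75 in Ctrl_CE (adjusted p = 0.0557) and its interaction -0.0097. For cold in MetR mice, Ffar4 was 1.21 by tag (adjusted p = 0.0641), and Sucnr1 was -0.78 with no filter (adjusted p = 0.0533), -0.62 by tag (adjusted p = 0.192) and -0.76 without the 3 (adjusted p = 0.0804).

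In iWAT apeglm took Ffar2 in Ctrl_CE to -0.57 and Ffar4 to 0.56 in Ctrl_CE and 0.54 in MetR_RT. With only the compared groups, Ffar4 was 0.63 in MetR_RT (adjusted p = 0.0534) and 0.61 for MetR_CE against Ctrl_CE (adjusted p = 0.038), and DESeq2 called its step from MetR_RT to MetR_CE (0.60, adjusted p = 0.0401). Gpr84 was -2.77 in Ctrl_CE and -3.60 in MetR_RT with only the compared groups, 0.56, -0.36 and -1.36 in the 3 comparisons in DESeq2, and -0.32 and -2.80 in Ctrl_CE and MetR_RT under apeglm.

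The replicate numbers in the titles did not pair the libraries, with median correlations of same-numbered deviations of 0.109 in eWAT, -0.005 in iBAT, 0.083 in iWAT and -0.003 in Liver. With the number as a block, Sucnr1 in iBAT for cold in MetR mice was -0.76 (adjusted p = 0.075), the Ffar4 interaction was 0.045 in iWAT and 0.68 in eWAT (adjusted p = 0.0575), and Gpr84 in iWAT was -1.64, -2.25 and -2.66. The block changed no other call.

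With the mouse as a block in limma voom, iBAT minus iWAT was -1.08 for Sucnr1 in Ctrl_CE, -1.38 for Ffar2 in MetR_RT, and -1.76 for Ffar2 and 1.29 for Ffar4 in MetR_CE, and iBAT minus eWAT was -1.19 for Ffar2 in Ctrl_CE, -1.71 for Ffar2 and -1.39 for Sucnr1 in MetR_CE, and -1.24 for Sucnr1 for cold in MetR mice. The level of Ffar4 in iBAT minus eWAT turned to -0.086, and that of Sucnr1 in Liver minus iWAT was 0.55 (adjusted p = 0.0522). With all libraries Sucnr1 was 0.56 in Liver minus iWAT and -0.57 in Liver minus eWAT.

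The number of called genes differed by over 1.5 times in 40 of the counts compared (13.9%). The interaction in iBAT had 89, and 136 with filterByExpr, 200 in DESeq2, 140 under apeglm, 1 by tag, 44 without the tagged libraries and 178 without Ctrl_CE replicate 4, and that in iWAT had 435, and 664 with filterByExpr, 930 in DESeq2 and 58.6% as many without MetR_RT replicate 6. Cold in MetR mice had 2041 in iBAT and 950 by tag, and 498 in iWAT and 981 in DESeq2. MetR_CE against Ctrl_CE in iWAT had 599, and 1063 in DESeq2. In eWAT, with all libraries, Ctrl_CE went from 673 to 2594, MetR_RT from 32 to 6, MetR_CE from 360 to 3268, the interaction from 640 to 1 and MetR_CE against Ctrl_CE from 1210 to 724. There, only the compared groups gave 366 in Ctrl_CE and 1 in MetR_RT, the block 55 in MetR_RT, DESeq2 168 in MetR_RT, 666 in MetR_CE and 1114 for the interaction, and apeglm 122 in MetR_RT. Leaving out 1 eWAT library gave down to 39.4% as many in Ctrl_CE and 173 in MetR_CE, 11 to 64 in MetR_RT and, for the interaction, 41.7% as many to 1180. Depth limits Gpr84 in fat, Hcar1 and Ffar2 in Liver and, with at most a few CPM, Ffar2 and Sucnr1 in iBAT.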

Other observations

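Markers of other cell types gave the following values in the comparisons of Ctrl_CE, MetR_RT and MetR_CE with Ctrl_RT. Of all genes, 14.7%, 2.5% and 14.7% were called in iBAT, 15.9%, 11.6% and 22.4% in iWAT and 2.42%, 0.115% and 1.3% in eWAT. Of 8 neutrophil markers, none, none and 4 fell in iBAT and 2, 5 and 5 in iWAT, and none was called in eWAT. Of 8 lymphocyte markers, 1 fell in iBAT MetR_CE and 2 in iWAT MetR_CE, with no other call in fat. Of 6 hepatocyte markers, 4 fell in each comparison of iBAT, where 1 Ctrl_RT library reached 52.7 summed CPM against a group median of 0.728, and 4, 2 and 3 rose in iWAT, where the group medians were 23.8 to 84.9 CPM. Of the mesothelial markers, 1 fell in Ctrl_CE and MetR_CE of both iBAT and iWAT. No epididymal epithelium marker was called, although their sum reached 1564 CPM in 1 kept MetR_RT library of eWAT against a group median of 0.753, and 9973 in a library that was left out. Of 6 skeletal muscle markers, 1 rose in MetR_RT and MetR_CE of iWAT and 1 of 5 fell in each comparison of eWAT, and none was called in iBAT.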
